A study of Homo sapiens with 12 samples.

Results

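The 9 genes described here carry out antigen presentation by MHC class I, and they were taken by their symbols from a table of 26210 genes. All 9 had a row. They are the heavy chain genes HLA-B, HLA-C, HLA-E and HLA-F, the light chain gene B2M, the peptide transporter genes TAP1 and TAP2, the loading factor gene TAPBP and the transcriptional regulator gene NLRC5. RNA-Seq measured them in 12 libraries of 6 groups, with 2 libraries in each group. All groups are untransfected human lines, and each line is a single established culture rather than a set of patients. KM-H2, L1236 and L428 are classical Hodgkin lymphoma (cHL) lines and were grown in IMDM. Namalwa is a Burkitt lymphoma line, and Reh is labelled a pro-B lymphoblastic leukaemia line. Both were grown in RPMI and served as the B-cell controls. The sixth group was Reh given PMA at 2 ng/ml. PMA is a phorbol ester that activates protein kinase C, and the labels do not state how long these cells were exposed. The other 5 groups were untreated.

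MHC class I molecules show peptides from inside the cell to CD8 T cells. Proteasomes cut the peptides, TAP1 and TAP2 together form the pump that carries them into the endoplasmic reticulum, tapasin (TAPBP) holds the empty class I molecule beside the pump, and a heavy chain paired with beta-2-microglobulin (B2M) takes the peptide to the surface. NLRC5 is the transactivator of class I genes, and interferons and NF-kappaB are known inducers of the pathway. In cHL, loss of surface class I, often through B2M lesions, is a known feature of the malignant Hodgkin and Reed-Sternberg cells.

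Levels are given as FPKM, which are fragment counts scaled to transcript length and to the size of the library, so genes of different length can be compared. The table holds no read counts, so the depth behind each value is not known. Differences are on the log2(FPKM + 1) scale, which understates changes of low values. They were tested with limma across the 12929 genes with a mean of at least 1 FPKM, and a difference was called at a Benjamini-Hochberg adjusted p below 0.05. The libraries were prepared in duplicate and no source says that duplicates were separate cultures, so these p-values measure the spread between libraries, which may be technical. In bulk RNA, fewer expressing cells and less RNA per cell cannot be told apart.

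The libraries fell into sets that the labels do not give. In 5 of them (column suffix 1 of KM-H2, L1236 and L428, and both PMA libraries) between 29 and 54 of 253 listed SNORD small nucleolar RNA genes were above 0, against 6 to 8 in the other 7. Of these 5 snoRNA-rich libraries, all but that of KM-H2 also had low ribosomal protein mRNAs, with medians over 86 genes of 249 to 621 FPKM against 1158 to 2072 in the remaining libraries. Treatment of Reh therefore coincided with the library set, and differences are also given with the set as a term in the fit or within a set. The lines mostly bore out their labels. TNFRSF8 (CD30), the defining cHL antigen, was at 19.1 to 63.7 FPKM in the cHL lines and at most 0.505 elsewhere, while the B-cell receptor component CD79A was at 168 and 287 FPKM in Namalwa, 336 and 429 in Reh and at most 2.55 in the cHL lines. Of 5 Hodgkin markers, 4 were at 1 FPKM or more in both libraries of KM-H2 and of L428, and KM-H2 had CCL22 listed at 0. The summed 6 B-lineage markers were at 21.9 and 35.5 FPKM in L1236, against 857 and 950 in Reh. DNTT, which marks precursor lymphocytes, was at 87.9 and 103 FPKM in Reh, but VPREB1 and CD34, also on the list of precursor B markers, were listed at 0 there. Namalwa, too, had 4 of the 6 precursor B markers at 1 FPKM or more in both libraries. Their sum was 128 and 136 FPKM in Namalwa, against 1111 and 1197 in Reh. KM-H2 also had the T-cell transcripts CD4 (46.0 and 54.5 FPKM) and CD3D (13.5 and 22.5 FPKM). The summed 5 T-cell markers reached 71.3 and 71.5 FPKM in KM-H2 and at most 2.58 FPKM elsewhere. The summed 5 myeloid markers were at 11.2 and 16.8 FPKM in KM-H2, against at most 1.23 in the other cHL lines and 3.90 in untreated Reh. The part of both marker sets in the KM-H2 values below was not tested.

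**Figure D1:**
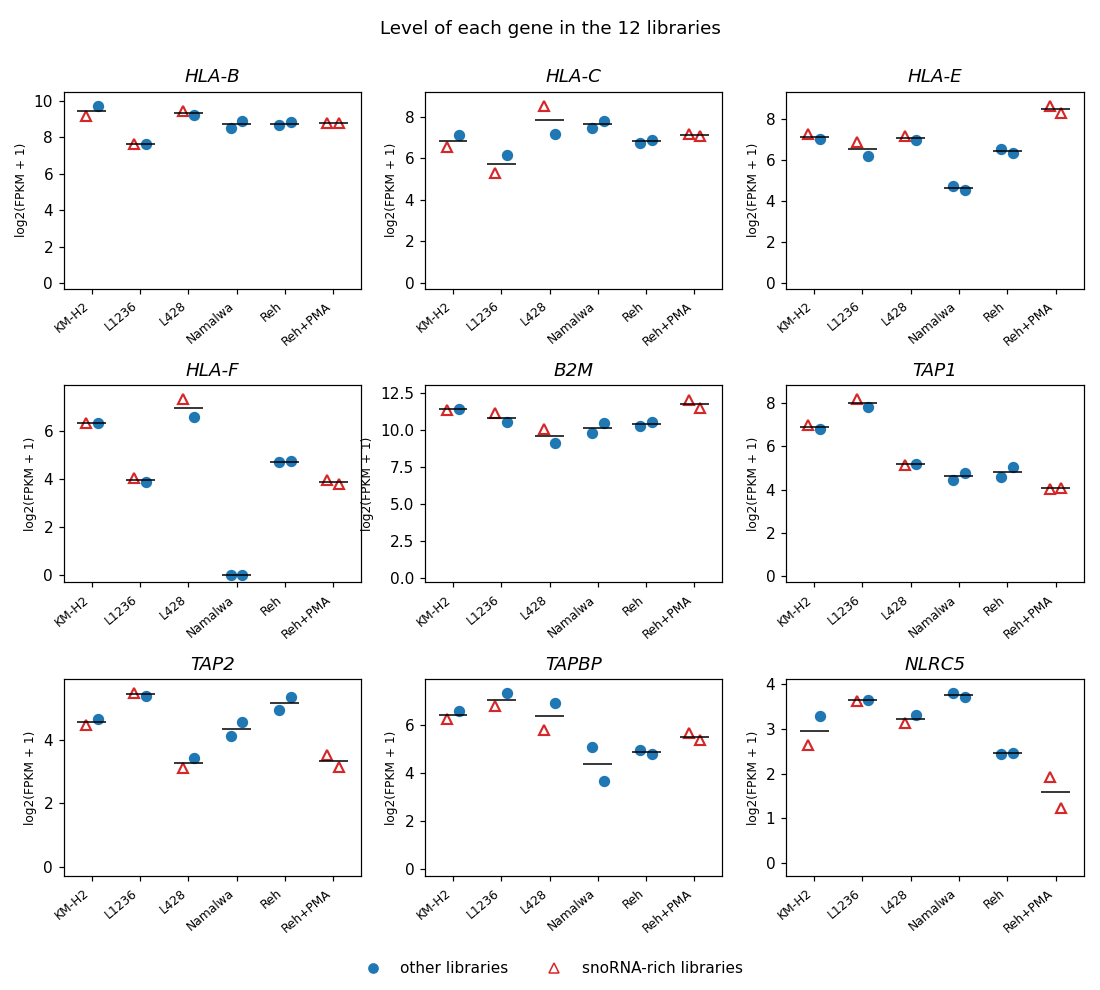
Level of each of the 9 genes on the log2(FPKM + 1) axis in the 12 libraries, by group. Blue discs are other libraries, red open triangles are snoRNA-rich libraries and the black bar is the mean of the 2 libraries of a group. HLA-E was highest with PMA, TAP1 was highest in L1236, and HLA-F was listed at 0 in both Namalwa libraries.

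In GRCh37 (hg19) coordinates of the GENCODE gene models, 7 of the 9 genes lie in the MHC on the short arm of chromosome 6. From the telomeric side these are HLA-F (chr6:29690552-29706305, plus strand), HLA-E (chr6:30457286-30461971, plus), HLA-C (chr6:31236526-31239907, minus), HLA-B (chr6:31321649-31334844, minus), TAP2 (chr6:32789610-32806516, minus), TAP1 (chr6:32812986-32821593, minus) and TAPBP (chr6:33267471-33282061, minus). B2M lies on chromosome 15 (chr15:45003556-45011049, plus) and NLRC5 on chromosome 16 (chr16:57023397-57117443, plus). The heavy chain genes are close relatives, so reads could be shared between them. Of all 50-base windows along the canonical transcript, 2.56% in HLA-B, 6.76% in HLA-C, 6.16% in HLA-E and 1.89% in HLA-F also occur in transcripts of genes elsewhere. The share was 7.09% for TAPBP, 1.18% for TAP1 and 0.554% for TAP2, and 0 for B2M and NLRC5. For TAP2 it was 35.3% once 1 gene model that overlaps it was counted, so TAP2 values carry that doubt. How reads that fit more than 1 gene were assigned is not given in the sources used here.

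Among the heavy chains, HLA-B, a classical heavy chain, was the most abundant in every library. HLA-B stood at 569 and 846 FPKM in KM-H2, 607 and 707 in L428, 409 and 452 in Reh, 442 and 448 in PMA-treated Reh, 367 and 476 in Namalwa, and 197 and 201 in L1236. L1236 lay below every other group without overlap, and it was the only step between neighbouring groups in the order that passed the test (Namalwa minus L1236, log2 difference 1.07, limma adjusted p 0.0156). HLA-C, the other classical heavy chain among the 9 genes, stood at 144 and 368 FPKM in L428, 177 and 222 in Namalwa, 134 and 145 in PMA-treated Reh, 93.4 and 138 in KM-H2, 106 and 118 in Reh, and 37.7 and 69.6 in L1236. No step between neighbours in the HLA-C order passed the adjusted threshold, although L1236 lay below Reh without overlap (-1.11, SE 0.44, adjusted p 0.0756), and the L428 duplicates alone were 1.35 apart on the log2 scale, the widest gap of the 9 genes in that line.

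HLA-E, a non-classical heavy chain that presents leader peptides to NK cell receptors, had another order. HLA-E reached 313 and 393 FPKM in PMA-treated Reh, 128 and 149 in KM-H2, 123 and 141 in L428, 70.7 and 114 in L1236, 78.5 and 89.9 in Reh and 21.8 and 25.1 in Namalwa. PMA-treated Reh stood above KM-H2 (1.34, adjusted p 0.00241) and Namalwa below Reh (-1.80, adjusted p 0.000825), and the steps between KM-H2, L428, L1236 and Reh did not pass the test. HLA-F, a non-classical heavy chain that is found on activated lymphocytes, stood at 93.8 and 158 FPKM in L428, 79.6 and 80.2 in KM-H2, 25.5 and 25.6 in Reh, 13.7 and 15.4 in L1236 and 12.8 and 14.5 in PMA-treated Reh. HLA-F was listed at 0 in both Namalwa libraries, and since an exact 0 in such a table can be a failed estimate, no fold against Namalwa is given.

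B2M was the most abundant of the 9 genes in every library except the L428 library of suffix 0, where HLA-B was higher. Its levels were 2934 and 4341 FPKM in PMA-treated Reh, 2697 and 2819 in KM-H2, 1515 and 2309 in L1236, 1260 and 1494 in Reh, 903 and 1454 in Namalwa and 577 and 1090 in L428. No step between neighbours in the B2M order passed the test.

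TAP1 spanned the widest range of the transporter genes. TAP1 stood at 224 and 287 FPKM in L1236, 109 and 124 in KM-H2, 34.6 and 34.9 in L428, 22.9 and 32.1 in Reh, 20.5 and 26.5 in Namalwa and 15.3 and 15.9 in PMA-treated Reh. L1236 stood above KM-H2 (1.12, adjusted p 0.00447) and KM-H2 above L428 (1.72, adjusted p 0.000394), while the 3 steps from L428 down to PMA-treated Reh did not pass the test. TAP2, its partner in the pump, stood at 41.0 and 43.5 FPKM in L1236, 30.0 and 39.4 in Reh, 21.3 and 24.2 in KM-H2, 16.4 and 22.5 in Namalwa, 7.80 and 10.4 in PMA-treated Reh and 7.72 and 9.69 in L428. The TAP2 order thus put Reh second and L428 last, and only the step from Namalwa to PMA-treated Reh passed the test (1.01, adjusted p 0.00733).

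TAPBP stood at 108 and 157 FPKM in L1236, 73.6 and 93.1 in KM-H2, 54.4 and 119 in L428, 39.6 and 49.5 in PMA-treated Reh, 26.7 and 29.3 in Reh and 11.5 and 32.5 in Namalwa. The 3 cHL lines all lay above the 3 other groups, although no step between neighbours passed the test. NLRC5 was the least abundant of the 9 genes in most libraries, with HLA-F lower in Namalwa, TAPBP lower in 1 Namalwa library and TAP2 lower in 1 L428 library. Its levels were 12.1 and 13.1 FPKM in Namalwa, 11.3 and 11.6 in L1236, 7.80 and 8.90 in L428, 5.26 and 8.71 in KM-H2, 4.45 and 4.48 in Reh and 1.35 and 2.81 in PMA-treated Reh. Only the last step in the NLRC5 order, from Reh to PMA-treated Reh, passed the test.

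The cHL lines were compared with the mean of Reh and Namalwa to ask how class I genes differ between cHL and other B-lineage lines. TAPBP was higher than the control mean in each of KM-H2, L1236 and L428, and TAP1 was higher in KM-H2 and L1236, also against Reh or Namalwa alone. HLA-E was higher than the control mean in all 3 lines, but not against Reh alone. HLA-B was higher in KM-H2 and lower in L1236, TAP2 was higher in L1236 and lower in L428, HLA-C was called lower in L1236, and B2M and NLRC5 were called in none. For HLA-E the log2 difference was 1.61 (SE 0.23, adjusted p 0.000381) in KM-H2, 1.54 (SE 0.23, adjusted p 0.000487) in L428 and 1.00 (SE 0.23, adjusted p 0.00605) in L1236. In L1236 that call rested on the snoRNA-rich library, since without it the difference was 0.66 (adjusted p 0.0675). The HLA-E calls rested on the low level in Namalwa. Against Reh alone the HLA-E differences were 0.71 in KM-H2 (adjusted p 0.0549), 0.64 in L428 (adjusted p 0.081) and 0.10 in L1236 (adjusted p 0.807), none of them called.

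TAP1 was 3.28 higher in L1236 (SE 0.20, adjusted p 1.32e-06) and 2.17 higher in KM-H2 (SE 0.20, adjusted p 2.12e-05) on the log2 scale. In L428 the TAP1 difference was 0.45 (SE 0.20, adjusted p 0.0888), although both L428 libraries lay above all 4 control libraries. TAPBP was higher by 2.43 in L1236 (SE 0.42, adjusted p 0.00121), 1.78 in KM-H2 (SE 0.42, adjusted p 0.00676) and 1.74 in L428 (SE 0.42, adjusted p 0.00753). In the libraries outside the snoRNA-rich set the TAPBP differences were as large, at 2.70, 1.95 and 2.30, but with fewer libraries none was called (adjusted p 0.0572, 0.103 and 0.078). Without the suffix 0 library of L428 the TAPBP difference was 1.19 (adjusted p 0.0802), and without the suffix 0 library of KM-H2 that line's difference was 1.62 (adjusted p 0.0575).

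In KM-H2, 5 of the 9 genes were higher than the controls and 0 lower, beside 23.5% of all genes tested in each direction. The median difference was 1.14 over the 9 genes and -0.01 over all genes. Besides HLA-E, TAP1 and TAPBP, HLA-B was higher by 0.71 (SE 0.25, adjusted p 0.0419), but this call was lost in 8 of the 12 fits that left out 1 library (adjusted p 0.0565 to 0.22) and with only the compared libraries fitted (adjusted p 0.0805), with the lowest difference, 0.42, without the suffix 0 library of KM-H2. B2M in KM-H2 lay above all control libraries with a difference of 1.14 (SE 0.42) and an adjusted p of 0.0516, just outside the threshold. The other KM-H2 differences were -0.39 for HLA-C, -0.18 for TAP2 and -0.14 for NLRC5, none of them called.

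In L1236, 5 of the 9 genes were higher and 2 lower, beside 23.1% and 22.8% of all genes tested. The median difference was 0.69 over the 9 genes and -0.02 over all genes. L1236 was the line in which classical heavy chains were low: HLA-B was lower by 1.09 (log2 difference -1.09, SE 0.25, adjusted p 0.00619) and HLA-C by 1.52 (log2 difference -1.52, SE 0.38, adjusted p 0.0103). For HLA-C the difference without the snoRNA-rich L1236 library was -1.09 (adjusted p 0.123). TAP2 was higher by 0.69 (SE 0.20, adjusted p 0.0208), a call that was lost when either L1236 library was left out (adjusted p 0.0738 and 0.113). The B2M difference was 0.58 (SE 0.42, adjusted p 0.294), running from 0.27 to 0.88 when 1 library was left out, and the NLRC5 difference was 0.54 (SE 0.24, adjusted p 0.0941).

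In L428, 3 of the 9 genes were higher and 1 lower, beside 23.8% and 23.6% of all genes tested. The median difference was 0.63 over the 9 genes and -0.02 over all genes. The gene that was lower was TAP2, with a difference of -1.47 (SE 0.20, adjusted p 0.000325). B2M had a negative difference of -0.66 (SE 0.42, adjusted p 0.23), which did not pass the test and ran from -1.12 to -0.20 when 1 library was left out. HLA-B and HLA-C had the same difference of 0.63 (adjusted p 0.0656 and 0.212), and that of NLRC5 was 0.12. For HLA-C the difference depended on which L428 library was kept, at -0.049 without the suffix 1 library of L428 and 1.30 without the suffix 0 library (adjusted p 0.0209).

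HLA-F is among the genes called higher in all 3 cHL lines in those counts, but there the control mean contains the 0 of Namalwa. Set against Reh alone, HLA-F was higher in L428 (2.21, SE 0.24, adjusted p 6.5e-05) and in KM-H2 (1.61, SE 0.24, adjusted p 0.000521) and lower in L1236 (-0.77, SE 0.24, adjusted p 0.0268). The direction in L1236 therefore depended on which control was used.

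**Figure D2:**
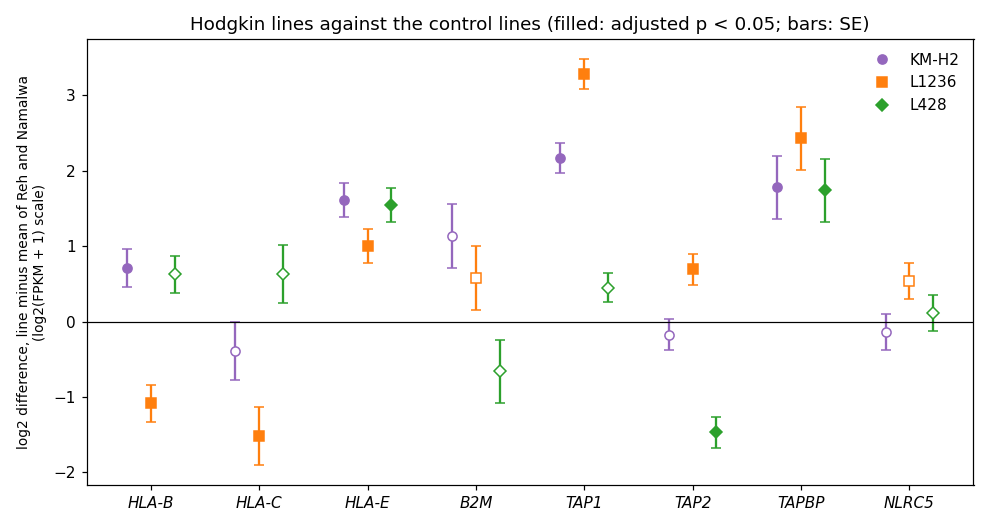
Log2 difference of 8 genes between each cHL line and the mean of Reh and Namalwa, with bars for the SE and filled symbols for an adjusted p below 0.05. HLA-F is left out because it was listed at 0 in Namalwa. HLA-E and TAPBP were higher than this mean in all 3 lines, HLA-B and HLA-C were called lower in L1236 alone of the 3 lines, and TAP2 in L428 alone.

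With the 3 cHL lines averaged, HLA-E (1.38, SE 0.17, adjusted p 0.000116), TAP1 (1.97, adjusted p 4.11e-06), TAPBP (1.98, adjusted p 0.000553) and HLA-F were higher, 4 of 9 genes with 0 lower, beside 27.7% and 26.3% of all genes tested. The other differences were -0.43 for HLA-C (adjusted p 0.238), 0.35 for B2M, -0.32 for TAP2, 0.17 for NLRC5 and 0.083 for HLA-B, none of them called, although HLA-C was called without the suffix 1 library of L428 (-0.65, adjusted p 0.0383). These tests treat libraries as the unit. When each line was reduced to its mean, so that 3 lines were set against 2, none of the 4 was called (adjusted p 0.102 for TAPBP, 0.358 for HLA-E and TAP1, and 0.397 for HLA-F). The 2-sided exact permutation test over the 5 line means gave 0.1 for HLA-E and TAPBP, which is the smallest p its 10 assignments allow, 0.2 for TAP1 and 0.3 for HLA-F. For HLA-E, whose Reh libraries overlapped those of L1236, and for TAP1 and TAPBP, all 3 cHL line means lay above both control line means.

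The upstream sequences of HLA-B and HLA-C, which were both low in L1236, and of TAPBP, TAP1 and TAP2, of which L428 had more TAPBP and less TAP2 than the controls, are shown because interferon and NF-kappaB response motifs are known entry points into this pathway. RefSeq promoter windows of GRCh38.p14 were held for 7 of the 9 genes, not for HLA-E and NLRC5, and each was placed in GRCh37 by its only exact match. Each sequence is the 250 bases before a start site, read 5′ to 3′ on the gene's own strand, and capitals mark matches to the interferon-stimulated response element (ISRE, TTTC, then any 2 bases, then TTTC) or the kappaB consensus on either strand.
HLA-B, chr6:31324957-31325206, minus strand: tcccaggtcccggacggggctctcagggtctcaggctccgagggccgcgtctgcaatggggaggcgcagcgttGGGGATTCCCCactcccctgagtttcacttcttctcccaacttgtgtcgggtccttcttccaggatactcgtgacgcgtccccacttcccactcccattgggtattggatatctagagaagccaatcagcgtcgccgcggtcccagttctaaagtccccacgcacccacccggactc
HLA-C, chr6:31239870-31240119, minus strand: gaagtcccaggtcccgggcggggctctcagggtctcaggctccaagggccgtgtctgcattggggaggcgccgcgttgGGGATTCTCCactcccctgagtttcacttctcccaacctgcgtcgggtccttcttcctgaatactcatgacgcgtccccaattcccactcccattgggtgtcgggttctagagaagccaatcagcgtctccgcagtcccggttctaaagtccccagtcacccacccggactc
TAP1, chr6:32821482-32821731, minus strand: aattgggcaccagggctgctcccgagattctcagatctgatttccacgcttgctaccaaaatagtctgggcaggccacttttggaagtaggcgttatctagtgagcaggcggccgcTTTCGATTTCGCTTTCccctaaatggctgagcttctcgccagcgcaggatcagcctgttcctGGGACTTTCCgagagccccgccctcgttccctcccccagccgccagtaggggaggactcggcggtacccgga
TAP2, chr6:32806517-32806766, minus strand: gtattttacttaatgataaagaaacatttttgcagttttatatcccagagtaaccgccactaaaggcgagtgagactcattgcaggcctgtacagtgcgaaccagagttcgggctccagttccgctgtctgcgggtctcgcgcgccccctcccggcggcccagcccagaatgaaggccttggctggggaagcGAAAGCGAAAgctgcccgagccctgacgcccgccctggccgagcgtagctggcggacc
TAPBP, chr6:33281856-33282105, minus strand: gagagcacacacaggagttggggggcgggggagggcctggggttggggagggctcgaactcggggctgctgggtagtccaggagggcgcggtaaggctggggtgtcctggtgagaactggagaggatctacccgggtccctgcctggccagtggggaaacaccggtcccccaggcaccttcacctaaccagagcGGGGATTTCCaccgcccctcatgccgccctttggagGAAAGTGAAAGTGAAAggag

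HLA-B and HLA-C held a kappaB match and no ISRE match, TAP2 held an ISRE match alone, and TAP1 and TAPBP held both. HLA-F held an ISRE match alone and B2M held both. In all, 5 of the 7 genes held an ISRE match, beside 3.02% of 35116 RefSeq promoters of the same length, and 5 of the 7 held a kappaB match, beside 9.96%. The CRE core (TGACG) was in 4 of the 7, beside 21.2%, the CCAAT box (CCAAT) in 5, beside 32%, and the GAS motif (TTCNNNGAA) in 1, at a second start site of TAP1, beside 6.57%. Neighbouring matches can overlap, as the 2 ISRE matches of TAP1 do, and a match describes letters, not binding. Patterns had to match exactly, so a near match was not counted, such as tttcacttct in the HLA-B and HLA-C windows. No ISRE match in these 2 genes therefore does not mean that they lack an interferon response element.

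Between the cHL lines, HLA-B, HLA-C, HLA-F, B2M, TAP1 and TAP2 were called in at least 1 of the 3 comparisons. TAPBP was called in none, and HLA-E and NLRC5 were called only when 1 library was left out. In L428 minus L1236, 3 of the 9 genes were higher and 2 lower, beside 15.5% and 15.3% of all genes tested. HLA-F (2.99, SE 0.24, adjusted p 1.77e-05), HLA-C (2.15, SE 0.44, adjusted p 0.006) and HLA-B (1.71, SE 0.29, adjusted p 0.00192) were higher in L428, and TAP1 (-2.83, SE 0.23, adjusted p 1.88e-05) and TAP2 (-2.16, SE 0.23, adjusted p 0.000132) were lower. The line with more heavy chain RNA thus had less transporter RNA. The other differences were -1.24 for B2M (adjusted p 0.0865), -0.69 for TAPBP, 0.54 for HLA-E and -0.42 for NLRC5. When 1 library was left out, the difference ran from -1.69 to -0.78 for B2M and from -1.25 to -0.13 for TAPBP. Without the snoRNA-rich L1236 library HLA-E was called (0.89, adjusted p 0.0452), and with each library left out its difference ran from 0.20 to 0.89. The HLA-C value depended on the library, since the difference was 3.25 between the snoRNA-rich libraries and 1.04 between the others (adjusted p 0.0842).

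In KM-H2 minus L1236 the same direction was seen, with HLA-F (2.38, adjusted p 5.68e-05) and HLA-B (1.80, adjusted p 0.00115) higher in KM-H2 and TAP1 (-1.12, adjusted p 0.00447) and TAP2 (-0.87, adjusted p 0.0187) lower, 2 of 9 genes in each direction, beside 17% of all genes tested that were higher and 18% that were lower. The other differences were 1.13 for HLA-C (adjusted p 0.0774), -0.68 for NLRC5 (adjusted p 0.0857), -0.65 for TAPBP, 0.61 for HLA-E and 0.56 for B2M. HLA-E was called without the snoRNA-rich L1236 library (0.96, adjusted p 0.0304), and NLRC5 was called without the suffix 0 library of KM-H2 (-0.996, adjusted p 0.034). HLA-C was called without either L428 library (adjusted p 0.0265 and 0.0271), and its difference ran from 0.70 to 1.57 when 1 library was left out. The TAP2 call was lost without either L1236 library (adjusted p 0.0603 and 0.0897). In KM-H2 minus L428, TAP1 (1.72, adjusted p 0.000394), TAP2 (1.30, adjusted p 0.00243) and B2M (1.80, SE 0.49, adjusted p 0.0183) were higher in KM-H2, 3 of 9 genes and 0 lower, beside 17.5% and 18.1% of all genes tested. The differences of HLA-C (-1.01, adjusted p 0.108) and HLA-F (-0.60, adjusted p 0.0762) did not pass the test, but HLA-F was called with the library set as a term (-0.60, adjusted p 0.0455). Without the suffix 0 library of L428 both were called, HLA-C at -1.69 (adjusted p 0.0135) and HLA-F at -0.98 (adjusted p 0.00653), and with each library left out they ran from -1.69 to -0.34 and from -0.98 to -0.23. Those of HLA-B, HLA-E, TAPBP and NLRC5 were at most 0.26 from 0. The B2M call was lost without either KM-H2 library (adjusted p 0.0571 and 0.0642) and without the suffix 0 library of L428, where the difference was 1.34 (adjusted p 0.0785).

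Between the control lines, Namalwa had less HLA-E and TAP2 and more NLRC5 than Reh. Of the 9 genes, 1 was higher and 3 were lower in Namalwa, beside 10.6% and 14.3% of all genes tested. HLA-E was lower by 1.80 (log2 difference -1.80, SE 0.26, adjusted p 0.000825), TAP2 had a difference of -0.80 (SE 0.23, adjusted p 0.0338), and the remaining gene called lower was HLA-F, listed at 0. NLRC5 was higher by 1.31 (SE 0.27, adjusted p 0.00689). The differences that did not pass were 0.83 for HLA-C (SE 0.44), -0.50 for TAPBP, -0.26 for B2M, -0.21 for TAP1 and -0.04 for HLA-B. The TAP2 call was lost without the suffix 0 Namalwa library, where the difference was -0.59 (adjusted p 0.192), and without the suffix 1 library of Reh, where it was -0.61 (adjusted p 0.221).

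PMA was given to Reh as an inflammatory stimulus, and the heavy chains, light chain and transporter did not move together. HLA-E rose, TAP1, TAP2, HLA-F and NLRC5 fell, and HLA-B, HLA-C, TAPBP and B2M did not pass the test. With 1 gene of 9 up and 4 down, beside 15.7% and 17.6% of all genes tested, the median difference was 0.05 over the 9 genes and -0.03 over all genes. HLA-E rose by 2.05 (SE 0.26, adjusted p 0.000609), 4.14-fold on the log2(FPKM + 1) scale, with both PMA libraries above both untreated ones. TAP2 fell by 1.82 (SE 0.23, adjusted p 0.000626), HLA-F fell by 0.86 (SE 0.24, adjusted p 0.0221), NLRC5 fell by 0.87 (SE 0.27, adjusted p 0.0379) and TAP1 fell by 0.76 (SE 0.23, adjusted p 0.0304). In each of these 4 the treated and untreated libraries did not overlap.

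B2M had a PMA difference of 1.38 (SE 0.49) with an adjusted p of 0.0564, just outside the threshold, and its treated libraries lay above the untreated ones. After quantile normalization the B2M difference was 2.33 (adjusted p 0.00419). The differences were 0.64 (SE 0.48) for TAPBP, 0.32 (SE 0.44) for HLA-C and 0.05 (SE 0.29) for HLA-B, none of them called.

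Both PMA libraries were snoRNA-rich and both untreated Reh libraries were not. The difference between the sets could be measured within the cHL lines, each of which has 1 library in each set. There the snoRNA-rich library was higher for HLA-E by 0.22 in KM-H2, 0.69 in L1236 and 0.19 in L428, each smaller than the PMA difference. For B2M the same difference was -0.06, 0.61 and 0.92, so for B2M in L428 it approached the PMA difference. With the set as a term in the fit, estimated from the cHL lines and taken to be the same in Reh, the PMA difference was 1.68 for HLA-E (adjusted p 0.00465), -1.69 for TAP2 (adjusted p 0.0058), -1.17 for HLA-F (adjusted p 0.015) and -0.94 for TAP1 (adjusted p 0.0439). NLRC5 lost its call (-0.59, adjusted p 0.221), B2M was at 0.89 (adjusted p 0.289), and TAPBP moved away from 0 to 1.30 (adjusted p 0.106), still not called.

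The calls for HLA-E and TAP2 held when any 1 library was left out. Those for HLA-F and TAP1 did not, with adjusted p reaching 0.104 for HLA-F and 0.207 for TAP1, and the NLRC5 difference was -0.52 (adjusted p 0.228) without the suffix 1 PMA library. The 5 T-cell markers were all listed at 0 in both PMA libraries and summed to at most 0.189 FPKM in untreated Reh. The summed 6 precursor B markers were at 124 and 131 FPKM with PMA against 1111 and 1197 in untreated Reh, and the summed 5 myeloid markers were at 13.3 and 14.6 FPKM against 2.85 and 3.90 in untreated Reh. The part of the precursor B and myeloid marker changes in the class I values was not tested.

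**Figure D3:**
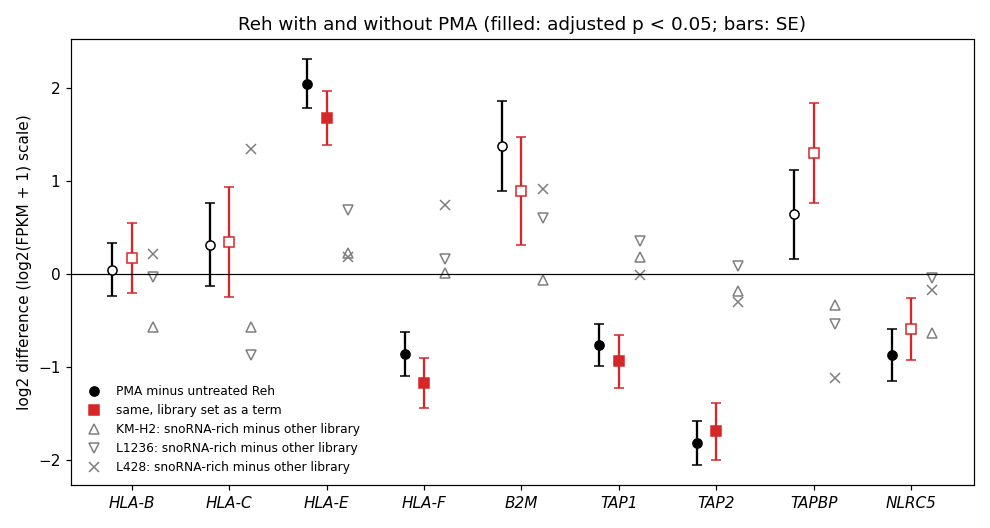
Log2 difference of the 9 genes between PMA-treated and untreated Reh (black circles), the same with the library set as a term (red squares), and the difference between the snoRNA-rich and the other library within each cHL line (grey symbols). Bars are the SE and filled symbols have an adjusted p below 0.05. HLA-E, HLA-F, TAP1 and TAP2 were called in both fits, and NLRC5 in the first alone.

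A factor that scales a whole library leaves ratios within it unchanged, so B2M was set against the sum of HLA-B, HLA-C, HLA-E and HLA-F, and TAP1 against TAP2. The summed heavy chains were 360 ± 7.18 FPKM (SD, n = 2) in L1236, 645 ± 106 in Namalwa, 652 ± 31.0 in Reh, 951 ± 69.7 in PMA-treated Reh, 1042 ± 212 in KM-H2 and 1171 ± 287 in L428. The ratio of B2M to this sum was 5.30 ± 1.45 (SD, n = 2) in L1236, 3.80 ± 0.77 in PMA-treated Reh, 2.69 ± 0.47 in KM-H2, 2.11 ± 0.15 in Reh, 1.80 ± 0.31 in Namalwa and 0.695 ± 0.139 in L428. Within each cHL line the ratio was higher in the snoRNA-rich library, at 3.02 against 2.37 in KM-H2, 6.33 against 4.27 in L1236 and 0.793 against 0.596 in L428, and the PMA and untreated Reh libraries differ in the same way in their set. The part of the set in the difference between PMA-treated and untreated Reh was not tested. L428 was the only group with less light chain than heavy chain RNA, and both its libraries lay below all others, the nearest of which was at 1.59. The cHL lines held both ends of this ratio, so as a group they did not stand apart from the controls (mean log2 difference 0.13, 2-sided exact permutation p 1.0 over 5 lines).

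The ratio of TAP1 to TAP2 separated the cHL lines from the rest. It carries the doubt on TAP2 given above, as 35.3% of TAP2 windows occur in other genes once an overlapping gene model is counted. The TAP1 to TAP2 ratios were as follows. It was 6.04 ± 0.79 (SD, n = 2) in L1236, 5.17 ± 0.92 in KM-H2 and 4.04 ± 0.62 in L428, against 1.75 ± 0.41 in PMA-treated Reh, 1.21 ± 0.05 in Namalwa and 0.790 ± 0.036 in Reh. The snoRNA-rich library was again the higher of each cHL pair, at 5.82 against 4.52 in KM-H2, 6.60 against 5.48 in L1236 and 4.48 against 3.60 in L428. The lowest cHL library (3.60) lay above the highest library of the other groups (2.04). Over lines the mean log2 difference between cHL and controls was 2.35, and the exact permutation p was 0.1, the smallest possible with 5 lines. In L428 this came with a low TAP2, in L1236 and KM-H2 with a high TAP1.

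The make-up of the heavy chain RNA shifted too. HLA-E made up 37.0% ± 3.3 (SD, n = 2) of the summed heavy chains in PMA-treated Reh, against 13.0% ± 1.9 in untreated Reh, 25.6% ± 8.1 in L1236 and 3.71% ± 0.98 in Namalwa. HLA-B made up 46.9% ± 3.0 in PMA-treated Reh and between 55.4% and 67.4% on average in the other groups. The HLA-E share also differed between the library sets, at 31.4% in the snoRNA-rich and 19.9% in the other library of L1236, 16.8% and 10.7% in KM-H2 and 10.2% and 12.7% in L428, and both PMA libraries are snoRNA-rich while the untreated Reh libraries are not. HLA-C had its largest share in Namalwa, at 31.0% ± 0.2.

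**Figure D4:**
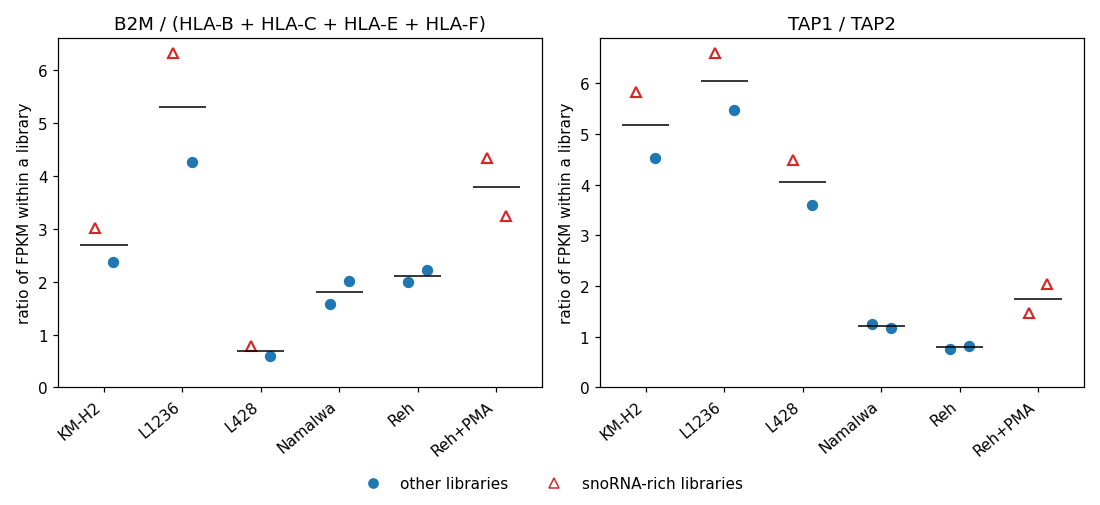
Ratio of FPKM within each library, for B2M over the summed heavy chains (left) and TAP1 over TAP2 (right), by group, with a black bar for the mean of 2 libraries. Blue discs are other libraries and red open triangles snoRNA-rich ones. L428 has the lowest B2M ratio, and all 6 cHL libraries have a TAP1 to TAP2 ratio of at least 3.60.

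The order of NLRC5 was not the order of the heavy chains, which it is known to activate. The group with the most NLRC5 after Namalwa, L1236, had the least HLA-B and HLA-C, and PMA-treated Reh, with the least NLRC5, had the most HLA-E and B2M. Over the 12 libraries, which include duplicates of only 6 groups and share the library sets, Pearson's r of NLRC5 was -0.74 with HLA-E, -0.52 with B2M, -0.22 with HLA-B, -0.05 with HLA-C, 0.40 with TAP2 and 0.50 with TAP1. These values are descriptions over few independent points. Of all genes tested, those with the highest r with NLRC5 over the 12 libraries were KCNAB2 (0.934), VOPP1 (0.933) and SAMHD1 (0.920).

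**Figure D5:**
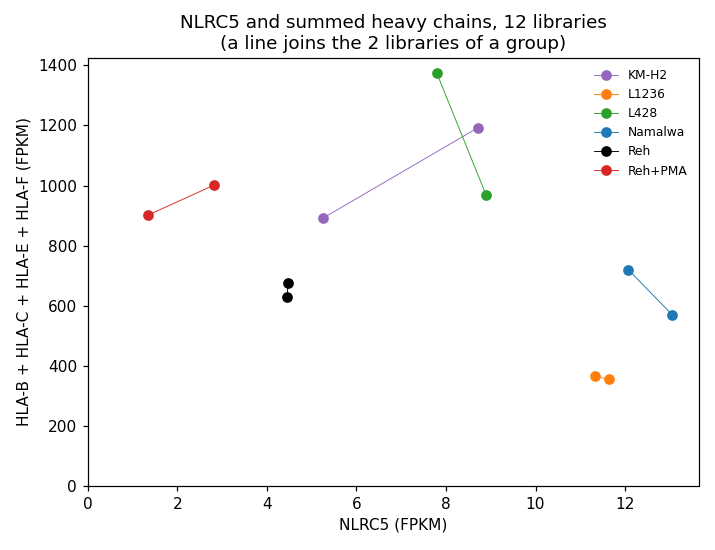
NLRC5 level on the x axis against the summed level of HLA-B, HLA-C, HLA-E and HLA-F on the y axis, both in FPKM, for the 12 libraries, with a line joining the 2 libraries of a group. L1236 has a high NLRC5 level and the lowest heavy chain sum, at 355 and 365 FPKM.

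Among the 9 genes themselves the highest r were between HLA-B and HLA-C (0.71), TAP1 and TAPBP (0.70), HLA-E and HLA-F (0.64) and TAP1 and TAP2 (0.63). The value for HLA-E and HLA-F includes both Namalwa libraries, where HLA-F was listed at 0 and HLA-E was lowest. TAP1 and PSMB9, which encodes an immunoproteasome subunit, start 488 bases apart on opposite strands (start sites 32821481 and 32821969 of chromosome 6, GRCh37) and had an r of 0.86, but r was also 0.86 between TAPBP and PSMB9, and 0.89 between TAP2 and PSMB8. The library kit keeps the strand, but whether the counting used it is not given in the sources used here. The ratio of TAP1 to PSMB9 was not constant and ran from 0.685 in PMA-treated Reh to 2.56 in L1236, as means of 2 libraries. The genes most like TAP1 were PORCN (0.983) and RAB33A (0.975), and those most like B2M were AP1G1 (0.930) and PSMC4 (0.927). With the mean z score of the 9 genes, r was highest for ANXA4 (0.953) and JAM2 (0.950).

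The other genes of the pathway were counted from lists of known function, beside 27.7% of all genes tested that were higher in the cHL average and 26.3% that were lower. In the cHL average, 1 of 5 immunoproteasome genes was higher and 0 lower, and the gene was PSMB9 (1.55, adjusted p 0.000154). PSMB9 stood at 92.9 and 106 FPKM in L1236, 46.4 and 53.8 in KM-H2 and 38.7 and 45.7 in L428, above the 11.3 to 37.2 of the control libraries. PSMB8, another catalytic subunit, was higher in L1236 alone (1.16, adjusted p 0.0101). Of the 11 constitutive proteasome genes, 1 was higher and 4 were lower. Of 6 trimming and loading genes, CANX, the chaperone calnexin, was higher (0.69, adjusted p 0.0125), and the aminopeptidases that trim peptides, ERAP2 (-0.95, adjusted p 0.000842) and ERAP1 (-0.64, adjusted p 0.00686), were lower. ERAP2 was highest in L1236, at 43.0 and 61.0 FPKM, and lowest in L428, at 3.31 and 3.41 FPKM. By line, ERAP2 was called higher than the controls in L1236 (0.77, adjusted p 0.0163) and lower in KM-H2 (-0.81) and L428 (-2.82). Both aminopeptidase genes were also lower in Namalwa than in Reh, ERAP2 by a difference of -1.19 and ERAP1 by -0.86, so their control means hold a higher Reh level.

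Among the 13 regulators, 2 were higher and 3 lower in the cHL average. IRF1, an interferon-induced activator of class I promoters, was among those lower, with a difference of -0.64 (adjusted p 0.00124). That difference rested on Reh, since IRF1 stood at 54.5 and 64.5 FPKM in Reh and 16.9 and 17.9 in Namalwa, against 13.5 to 31.6 in the cHL libraries. Of 12 interferon response genes, 8 were higher and 1 lower in the cHL average (median 1.36), with 11 of 12 higher and 0 lower in L1236, 8 higher and 2 lower in L428 and 3 higher and 1 lower in KM-H2, beside 23.1%, 23.8% and 23.5% of all genes that were higher and 22.8%, 23.6% and 23.5% that were lower in these lines. The gene that was lower in the cHL average was MX1 (-0.95, adjusted p 0.0319), which was at 58.6 and 128 FPKM in L1236 but at most 0.432 in KM-H2. All 8 NF-kappaB target genes were higher in the cHL average (median 2.23), with ICAM1 (4.23, adjusted p 1.42e-07) and TRAF1 (4.16, adjusted p 9.63e-08) furthest apart. By line, 8 were called higher and 0 lower in L428, 7 and 0 in KM-H2, and 6 and 1 in L1236. The target called lower in L1236 was CD83 (-1.999, adjusted p 3.91e-05). Of 6 class I-like genes tested of 13 listed, 3 were higher and 2 lower. The neonatal Fc receptor gene FCGRT was lower (-2.18, adjusted p 6.37e-06), and by line it was called lower in KM-H2 (-3.32) and L1236 (-2.82) but not in L428. MICA, a stress ligand, was higher (0.85, adjusted p 0.00343), but by line it was not called in L1236. MICA was also lower in Namalwa than in Reh (-1.75, adjusted p 0.00148), so the control mean of MICA holds a low Namalwa level. PROCR was called higher in the average, but it stood at 16.5 and 21.7 FPKM in KM-H2 and at most 0.545 FPKM in every other group.

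With PMA, the pathway lists moved in different directions. Of the 5 immunoproteasome genes 0 rose and 3 fell, namely PSME2 (-2.59, adjusted p 0.0296), PSMB8 (-1.49, adjusted p 0.0101) and PSMB10 (-1.38, adjusted p 0.0274), while 4 of 11 constitutive proteasome genes rose and 0 fell. Of the 6 trimming and loading genes 0 rose and 3 fell: ERAP2 (-2.05, adjusted p 0.000446), ERAP1 (-1.35, adjusted p 0.00323) and TAPBPL (-1.10, adjusted p 0.0228), a relative of tapasin. Of 12 interferon response genes 0 rose and 7 fell (median -1.51), beside 17.6% of all genes tested, and the share that rose was 15.7%. Of the 13 regulators 3 rose and 4 fell (median 0.08). EZH2 (1.62, adjusted p 0.046), NFYC (0.99, adjusted p 0.022) and NFYA (0.64, adjusted p 0.046) rose, and IRF1 (-2.08, adjusted p 6.23e-05), IRF2 (-1.35, adjusted p 0.00142) and RFX5 (-1.23, adjusted p 0.00708) were among those that fell. Of 8 NF-kappaB targets 5 rose and 0 fell (median 1.96), led by TRAF1 (3.20, adjusted p 4.18e-05) and RELB (2.48, adjusted p 0.00131). Of the class I-like genes tested, FCGRT rose and 1 fell, FCGRT going from 7.92 and 8.02 FPKM to 139 and 156 (4.05, adjusted p 1.43e-05). These list values, like those above, were not corrected for the library set.

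Between the control lines, 2 of 5 immunoproteasome genes, 3 of 6 trimming and loading genes and 6 of 12 interferon response genes were lower in Namalwa and 0 of each list higher, beside 14.3% and 10.6% of all genes tested. Of the 8 NF-kappaB targets 5 were higher and 2 lower in Namalwa, with BIRC3 (5.49, adjusted p 9.05e-07) and RELB (3.36, adjusted p 0.00013) higher and TNFAIP3 (-5.04, adjusted p 5.03e-05) and NFKBIA (-1.81, adjusted p 0.00075) lower. IRF1 was lower by 1.71 (log2 difference -1.71, adjusted p 8.69e-05), so the line with the most NLRC5 had less IRF1, TAP2 and HLA-E than Reh.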

How the data were processed

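RNA was isolated on columns with DNase treatment, and stranded total RNA libraries were made after ribosomal RNA depletion. The submitters' processing notes name TopHat2 2.0.11, Cuffnorm 2.2.1, bedtools and hg19. The authors deposited 1 table of FPKM values per gene. The annotation, the scaling between libraries and the sequencer of each library are not given in the sources used here, nor are read counts, so neither depth nor counting intervals can be given.

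Values were transformed to log2(FPKM + 1), and genes with a mean of at least 1 FPKM (12929) were fitted over all 12 libraries with limma 3.58.1 in R 4.3.3 (trend, 6 residual degrees of freedom, Benjamini-Hochberg adjustment). The table's column suffixes 0 and 1 could not be tied to the labels' replicate numbers and name libraries only. Alternatives covered the pseudocount, the filter, scaling, the samples fitted, each library left out and, chosen after seeing the data, the library set. All 9 genes are named in every comparison. From other lists up to 3 called genes per direction with the largest differences could be named, and markers were used to check the labels. Some genes of these lists are not reported here. The genes and lists were chosen with earlier results of these data known. Sequences come from RefSeq, gene positions from GENCODE on GRCh37.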

Additional observations from a re-analysis of the deposited data

Results flagged for a closer look

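For HLA-B and TAP2, cHL lines were called on opposite sides of the same control mean, that of Reh and Namalwa. HLA-B was higher than the controls in KM-H2 (0.71) and lower in L1236 (-1.09), and KM-H2 minus L1236 was 1.80 (limma adjusted p 0.00115). TAP2 was higher than the controls in L1236 (0.69) and lower in L428 (-1.47), and L428 minus L1236 was -2.16 (limma adjusted p 0.000132). As both genes were picked for calls in opposite directions against shared controls, the difference between lines follows from that choice and adds no independent evidence. The HLA-B call in KM-H2 was lost in 8 of the 12 fits that left out 1 library (adjusted p 0.0565 to 0.22) and with only the compared libraries fitted (adjusted p 0.0805), and the TAP2 call in L1236 was lost without either L1236 library (adjusted p 0.0738 and 0.113). Within the snoRNA-rich libraries the difference between lines was 1.52 for HLA-B (adjusted p 0.0749) and -2.35 for TAP2 (adjusted p 0.101), and within the others it was 2.07 for HLA-B (adjusted p 0.029) and -1.97 for TAP2 (adjusted p 0.0504).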

How the results depend on the processing

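No called difference of the 9 genes changed sign under any alternative. Of 1890 alternative values for the 9 genes, 1755 kept their direction and side of the threshold, 81 lost the call, 33 gained one and 21 changed sign, all of them not called in either fit, and the cause was not tested. Those with a sign change in another set of libraries were HLA-B in KM-H2 minus L428 within the 5 snoRNA-rich libraries (-0.31) and, without these 5, TAPBP in KM-H2 minus L428 (-0.35), NLRC5 in KM-H2 against the controls (0.17) and HLA-C in L428 against the controls (-0.049). With each library left out in turn, values ran from -0.022 to 0.12 for HLA-B with PMA, in Namalwa minus Reh from -0.23 to 0.14 for HLA-B, -0.60 to 0.084 for B2M, -0.44 to 0.027 for TAP1 and -1.21 to 0.21 for TAPBP, in KM-H2 minus L428 from -0.20 to 0.37 for HLA-B, -0.042 to 0.18 for HLA-E, -0.51 to 0.60 for TAPBP and -0.58 to 0.058 for NLRC5, from -0.46 to 0.17 for NLRC5 in KM-H2 and -0.049 to 1.30 for HLA-C in L428 against the controls, and from -0.012 to 0.18 for HLA-B in the cHL average. The number of genes called in all also moved. With each library left out it ran from 2146 to 4636 for PMA (4305 with all libraries), 1962 to 3476 for Namalwa minus Reh (3225) and 2599 to 4349 for L428 minus L1236 (3986). With a mean of at least 5 FPKM it was 1936 for Namalwa minus Reh and 2917 for KM-H2 minus L1236. For L428 minus L1236, KM-H2 minus L1236 and KM-H2 minus L428 it was 2128, 2449 and 1751 with only the compared libraries fitted, 2244, 2833 and 2919 without the snoRNA-rich libraries, and 753, 1494 and 1430 within them, all of which use fewer samples. With 5 line means it was 92 for the cHL average, against 6977. Deviations of same-suffix libraries correlated from -0.04 to 0.63 over 15 pairs of groups, 6 of them over 0.1. All 3 pairs of cHL lines were among these 6 (0.286 to 0.633), where the suffix is also the library set, and so was Namalwa with Reh (0.366), but since 9 pairs were not, the suffix was not taken to pair the libraries of all groups. With the set as a term HLA-F in KM-H2 minus L428 gained a call (-0.60, adjusted p 0.0455) and NLRC5 with PMA lost one. A replicate block on the suffix called 3 more differences, B2M with PMA (1.38, adjusted p 0.0415), B2M in KM-H2 (1.14, adjusted p 0.0382) and TAP1 in L428 (0.45, adjusted p 0.0479) against the controls, and changed no other call of the 9 genes. With 2 libraries a group and 5 lines, differences between lines cannot pass an exact test, and depth is not known.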
